A study of Homo sapiens with 8 samples.

Results

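Open chromatin was followed at 8 genes that encode the receptors, proximal caspases and inhibitor of the extrinsic apoptosis pathway: FAS, TNFRSF10A, TNFRSF10B, TNFRSF10C, TNFRSF10D, CASP8, CASP10 and CFLAR. A consensus peak was counted as a member where it overlapped the hg38 RefSeq span of one of these genes extended by 1 kb on both sides. This gave 47 of the 159451 peaks, and all 47 passed the filter on low values that left 158698 peaks in the test. CFLAR had 12 member peaks, TNFRSF10B 9, CASP8 8, TNFRSF10D 7, FAS 5, TNFRSF10A 4, CASP10 2 and TNFRSF10C 0. The rule for the peaks used position alone.

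ATAC-seq, in which the transposase Tn5 cuts and tags accessible DNA, was run on the human ovarian cancer line A2780, an established line, in 4 groups of 2 libraries. The groups were control cells (no treatment named), cisplatin-resistant cells (CpR, treatment label Cisplatin), paclitaxel-resistant cells (TxR, Paclitaxel) and cells resistant to both (TxCpR, Cisplatin/Paclitaxel, called dual-resistant here). All 4 groups carry the genotype label WT, and the sources used here do not say whether a resistant line is 1 clone, how it was selected or whether drug was present at harvest. The labels do not state separate cultures for the 2 libraries of a group, so p-values measure only the spread between libraries, which may be technical. The values are averages over a culture: a change in a share of the cells and a change in every cell cannot be told apart. They describe how open the DNA was, not RNA or protein.

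Extrinsic apoptosis starts when a ligand of the TNF family clusters a receptor that has a death domain. FAS binds FAS ligand, and TNFRSF10A and TNFRSF10B bind TRAIL. The clustered receptors recruit the adaptor FADD, which brings in the initiator caspases CASP8 and CASP10. Active initiator caspases cut further proteins of the death pathway or, through BID, engage the mitochondria. CFLAR encodes c-FLIP, a relative of CASP8 without protease activity that competes for the same complex. TNFRSF10C lacks a cytoplasmic death domain and TNFRSF10D has a truncated one, so both bind TRAIL as decoys. CFLAR, CASP10 and CASP8 are neighbours in the genome, and so are the 4 TRAIL receptor genes, while FAS lies apart from both clusters.

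The DNA before the starts of CFLAR and CASP8 and a short stretch in the FAS start region are shown first, since the peaks described below lie on them. They come from the RefSeq promoter table of GRCh38.p14 (the same build as hg38), which matched 3 of the 8 genes with 10 starts. Starts are numbered by position within that table. The spans of CFLAR and FAS begin before their first listed start, at chr2:201116164 and chr10:88964050. Each of the first 3 sequences holds the 250 bases before a start, and the last holds 30 bases of the window before the third FAS start. All are on the plus strand, and capitals mark motif matches.
CFLAR first start, chr2:201118466-201118715: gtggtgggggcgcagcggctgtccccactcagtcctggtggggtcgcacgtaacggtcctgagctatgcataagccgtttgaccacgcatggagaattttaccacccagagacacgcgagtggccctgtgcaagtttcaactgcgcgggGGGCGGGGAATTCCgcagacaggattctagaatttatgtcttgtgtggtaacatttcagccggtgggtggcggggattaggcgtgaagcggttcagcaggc
CASP8 first start, chr2:201233213-201233462: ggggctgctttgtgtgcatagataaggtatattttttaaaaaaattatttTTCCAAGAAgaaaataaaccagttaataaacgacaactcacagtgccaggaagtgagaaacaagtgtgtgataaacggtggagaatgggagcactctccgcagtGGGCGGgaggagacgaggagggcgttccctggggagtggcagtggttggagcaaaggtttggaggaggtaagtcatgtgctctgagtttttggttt
CASP8 second start, chr2:201257785-201258034: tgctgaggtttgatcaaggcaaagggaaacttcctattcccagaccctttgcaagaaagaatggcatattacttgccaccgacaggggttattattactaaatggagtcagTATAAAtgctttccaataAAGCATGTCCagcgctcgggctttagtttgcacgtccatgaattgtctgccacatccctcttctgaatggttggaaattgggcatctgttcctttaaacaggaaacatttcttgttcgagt
FAS, the third start, chr10:88991299-88991328: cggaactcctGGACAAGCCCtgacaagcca
In the CFLAR sequence the capitals hold an SP1 match (GGGCGG, 101 to 96 bases before the start) that overlaps an NF-kB match at 97 to 88 bases. The first CASP8 start had an SP1 match (96 to 91 bases before it) and a GAS match (TTCNNNGAA, 200 to 192 bases), the interferon-gamma activated site bound by STAT proteins. Before the second CASP8 start stood a TATA box (TATAAA, 139 to 134 bases) and a p53 half-site (121 to 112 bases). The FAS stretch shows a p53 half-site at 122 to 113 bases, inside the peak over that start. Outside the printed stretch, the window of that start also held SP1 matches (63 to 58 and 52 to 47 bases) and an NF-kB match (157 to 148 bases). Both strands were searched, also for ETS (CCGGAA), AP-1 (TGANTCA) and the interferon-stimulated element ISRE. Of 35116 windows of the same length, 42.6% held an SP1 match, 10.7% a TATA box, 6.57% a GAS match, 5.57% a p53 half-site and 5.21% an NF-kB match. A match is a description of the letters and not a bound site.

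Reads in peaks ran from 7693492 to 9304798 per library, so 1 CPM (counts scaled to a common total per library) stood for 7.69 to 9.30 reads. A count of 0 allows up to 0.322 to 0.390 CPM (3 reads per library), a floor that covers counting error only. Of 9 ovarian carcinoma and epithelial markers, 8 had a start peak, with PAX8 at 0.636 to 4.01 CPM and none for MUC16, and summed levels per library of 43.9 and 44.1 CPM (control), 51.9 and 53.2 (cisplatin-resistant), 30.6 and 36.2 (paclitaxel-resistant) and 40.3 and 41.4 (dual-resistant). Of 4 fibroblast markers all had a start peak, and their sum was 27.4 and 29.2 CPM (control), 39.8 and 42.4 (cisplatin-resistant), 61.1 and 63.3 (paclitaxel-resistant) and 39.2 and 39.5 (dual-resistant). The group means of DCN and LUM were 14.8 and 25.8 CPM in paclitaxel-resistant cells and at most 1.58 in the other groups, while COL1A1 had 20.4 CPM in control, 35.7 in cisplatin-, 15.6 in paclitaxel- and 31.2 in dual-resistant cells and COL1A2 3.32 to 6.02. Of 5 haematopoietic markers 4 had a start peak (none for PTPRC), with sums of 51.2 to 79.9 CPM. None of 3 endothelial markers had one. The part of these levels in the results was not tested.

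Against control, cisplatin-resistant cells had 12 member peaks higher and 5 lower, paclitaxel-resistant cells 5 higher and 1 lower, and dual-resistant cells 9 higher and 0 lower (1 lower at an unadjusted p under 0.05, and 1 by edgeR; limma on log2(CPM + 0.5), with p-values adjusted by the Benjamini-Hochberg method for 158698 peaks and a threshold of 0.05, which is what "called" means below). As shares of the 47 peaks these were 36.2%, 12.8% and 19.1%, beside 33.2%, 16.4% and 13.5% of all tested peaks. These shares lay near those of all peaks, so the counts are no result about the family, and the single peaks are described below. The median log2 difference of the members was 0.06, 0.09 and 0.21, beside -0.09, -0.14 and 0.08 over all peaks. Median-ratio scaling, which brings the median over all peaks to 0.01, 0.00 and 0.01, gave 14 higher and 2 lower member peaks in CpR, 11 and 1 in TxR and 5 and 0 in TxCpR libraries.

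**Figure D1:**
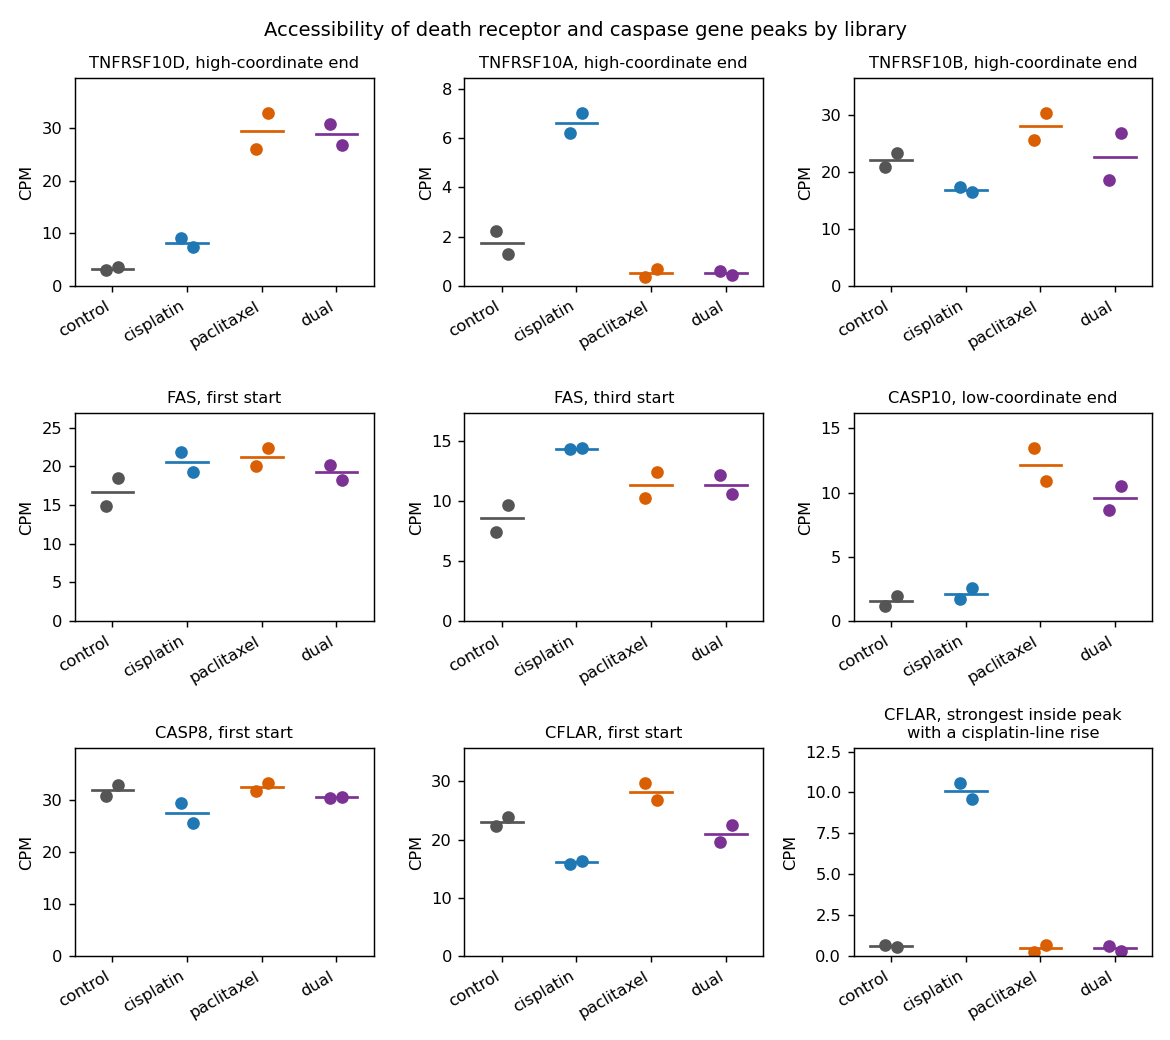
CPM of named member peaks in each of the 8 libraries, with groups along the horizontal axis and 1 point per library. The TNFRSF10D end peak stands at 26.0 to 32.8 CPM in the paclitaxel- and dual-resistant libraries and at 2.99 and 3.60 in control. The CFLAR-AS1 peak that is drawn (chr2:201149280-201150280) is high in cisplatin-resistant libraries alone.

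The decoy receptor gene TNFRSF10D held the smallest p-values of the named peaks. The peak over the high-coordinate end of its span (chr8:23163312-23164312) had 2.99 and 3.60 CPM in control libraries, 9.0 and 7.37 in CpR, 26.0 and 32.8 in TxR and 30.8 and 26.8 in TxCpR libraries. Every resistant library lay above both control libraries, and the paclitaxel- and dual-resistant libraries lay above the cisplatin-resistant ones. The log2 difference from control was 1.19 (SE 0.19, adjusted p = 1.45e-07) in cisplatin-, 2.97 (SE 0.19, adjusted p = 1.74e-26) in paclitaxel- and 2.95 (SE 0.19, adjusted p = 6.32e-26) in dual-resistant cells. Between resistant lines, the dual-resistant cells exceeded the cisplatin-resistant ones by 1.76 (adjusted p = 1.68e-13). Their difference from paclitaxel-resistant cells was -0.02 with a 95% interval of -0.40 to 0.35 (adjusted p = 0.946). Tested peaks within 2.5 Mb on each side, member peaks left out, were summarised by their median log2 level in each library. This level differed from control by 0.21, -0.21 and 0.26 in the 3 lines. With that median subtracted, the differences from control were 0.98, 3.19 and 2.69, all called, and the dual-resistant value was then 0.50 on the log2 scale below the paclitaxel-resistant one (-0.50, adjusted p = 0.0416).

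Inside TNFRSF10D the picture was different from peak to peak. The neighbouring peak at chr8:23161376-23162376 had 4.68 and 4.38 CPM in control and 10.02 and 8.65 in cisplatin-resistant libraries, with 3.52 and 3.93 in TxR and 6.68 and 4.62 in TxCpR ones. It was higher than control in cisplatin-resistant cells alone (0.97, SE 0.27, adjusted p = 0.00266), and paclitaxel-resistant cells were below cisplatin-resistant cells there by a difference of -1.22 (adjusted p = 9.66e-05). So the peak next to the gene's end was highest in the line where the end peak itself was lowest among the resistant lines. At chr8:23160311-23161311, named after its values were seen, paclitaxel-resistant libraries fell to 0.364 and 0.899 CPM from 2.34 and 2.57 in control (-1.43, SE 0.42, adjusted p = 0.00915). Peaks at chr8:23134498-23135498 and chr8:23156246-23157246 rose in dual-resistant cells (1.19 and 1.31, adjusted p = 0.0381 and 0.0276). Those last calls ended under several alternatives, among them leaving out either dual-resistant library, or control library 2 for the first (0.65, adjusted p = 0.474) and control library 1 for the second (0.77, adjusted p = 0.41).

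TNFRSF10C, the other decoy gene, had no peak in its 14.5 kb span extended by 1 kb. The nearest peaks lay 9.54 kb below and 1.77 kb above the span. Its accessibility therefore has no value here, in control or in resistant cells.

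TNFRSF10A, a TRAIL receptor with a full death domain, had its highest end peak in cisplatin-resistant cells, the line in which TNFRSF10D rose least. The peak over the high-coordinate end (chr8:23224818-23225818), which also overlaps the span of the non-coding gene TNFRSF10A-DT, had 2.21 and 1.29 CPM in control and 6.19 and 7.02 in cisplatin-resistant libraries. Paclitaxel-resistant libraries had 0.364 and 0.674 CPM and dual-resistant ones 0.618 and 0.430, so that the 3 sets did not overlap: cisplatin-resistant above control, and both other lines below it. Only the rise in cisplatin-resistant cells passed the test (1.69, SE 0.44, adjusted p = 0.0013). The differences of -1.13 (adjusted p = 0.0653) and -1.11 (adjusted p = 0.0811) in paclitaxel- and dual-resistant cells did not, and their levels lie within a few reads of the floor. Against cisplatin-resistant cells, the dual-resistant value was lower by a difference of -2.80 (SE 0.44, adjusted p = 9.52e-08) and the paclitaxel-resistant value by -2.82 (SE 0.44, adjusted p = 6.58e-08). After the regional median was subtracted, the dual-resistant fall from control was -1.37 with an adjusted p of 0.0226. That fall was also called with cyclic loess scaling and by edgeR. The paclitaxel-resistant fall was called with a filter of at least 3 CPM in at least 2 libraries and with no variance trend.

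Within TNFRSF10A, the peak at chr8:23198690-23199690 had 3.64 and 2.45 CPM in control, 0.675 and 0.585 in CpR, 1.21 and 1.12 in TxR and 3.34 and 2.90 in TxCpR libraries. It fell in cisplatin-resistant cells (-1.63, SE 0.42, adjusted p = 0.00126), where the end peak rose. Dual-resistant cells stood above cisplatin-resistant cells there by 1.68 (adjusted p = 0.000687). A weaker peak at chr8:23217947-23218947, named after its values were seen, rose from 0.910 and 0.515 CPM to 2.93 and 2.69 CPM in cisplatin-resistant libraries (1.47, SE 0.47, adjusted p = 0.00935).

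TNFRSF10B, the other TRAIL death receptor, had 1, 1 and 0 of its 9 peaks called in cisplatin-, paclitaxel- and dual-resistant cells, beside 33.2%, 16.4% and 13.5% of all tested peaks (for the last line, also 0 at an unadjusted p under 0.05 and by edgeR). Its peak of highest mean level, at the low-coordinate end (chr8:23019060-23020060) and shared with the neighbouring gene RHOBTB2, had 29.2 and 25.9 CPM in control, 24.5 and 29.5 in CpR, 20.5 and 25.6 in TxR and 27.2 and 29.1 in TxCpR libraries. No difference was called there, and the 95% intervals of the differences from control were -0.30 to 0.24, -0.53 to 0.02 and -0.24 to 0.31. The peak at the other end (chr8:23068585-23069585), which overlaps the span of TNFRSF10B-AS1, had 20.9 and 23.3 CPM in control, 17.3 and 16.5 in CpR, 25.6 and 30.3 in TxR and 18.5 and 26.9 in TxCpR libraries. Cisplatin- and paclitaxel-resistant cells lay on opposite sides of control: paclitaxel-resistant cells exceeded cisplatin-resistant cells by 0.71 (SE 0.15, adjusted p = 5.54e-05). The fall from control in cisplatin-resistant cells was small (-0.38, SE 0.15, adjusted p = 0.0437) and was lost under 13 alternatives, among them leaving out either library of control, of cisplatin- or of paclitaxel-resistant cells, and cyclic loess scaling (-0.18, adjusted p = 0.39). A weak peak at chr8:23022498-23023498 rose in paclitaxel-resistant cells (1.17 and 2.45 CPM in control, 5.10 and 4.05 in the line; 1.19, SE 0.36, adjusted p = 0.0135). Without control library 1 that difference was 0.78 (adjusted p = 0.256), and without paclitaxel-resistant library 1 it was 1.04 (adjusted p = 0.15).

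**Figure D2:**
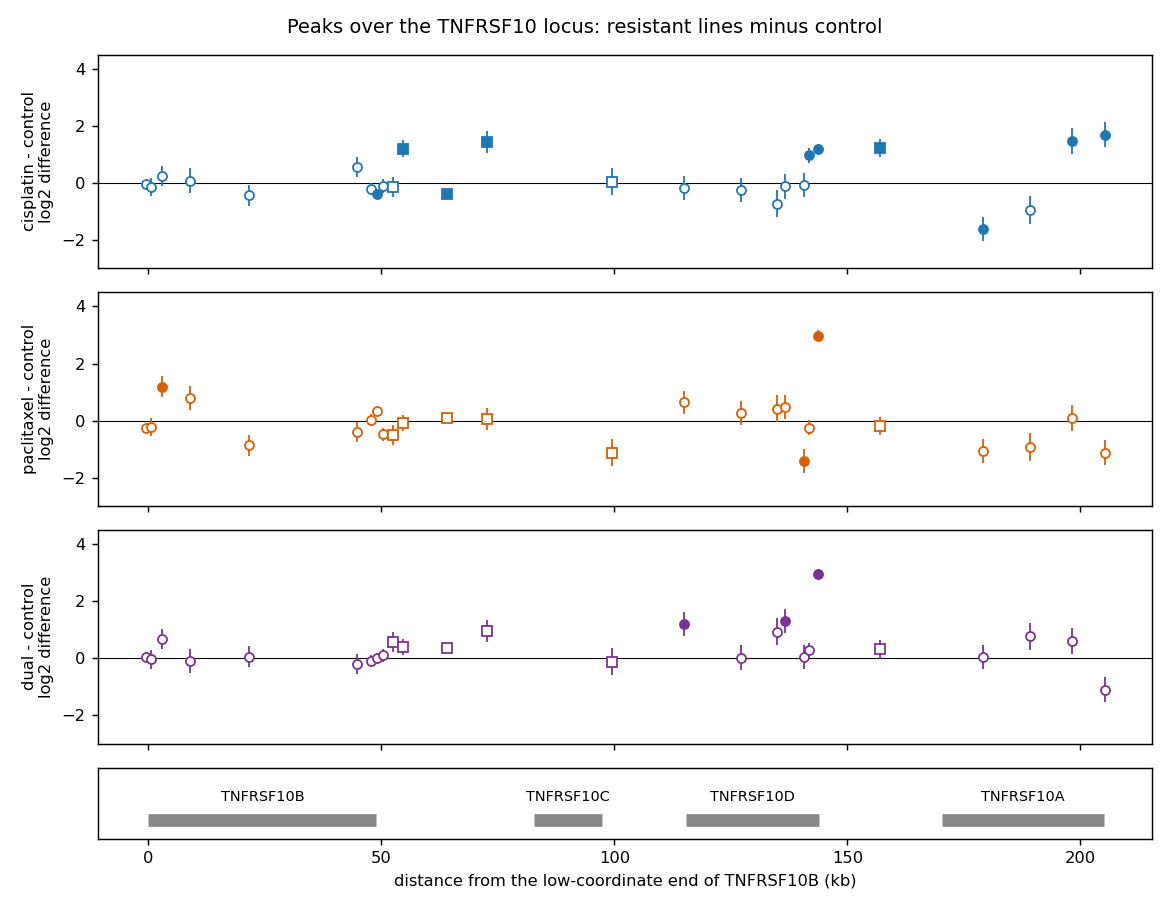
Log2 difference from control of each peak across the TRAIL receptor cluster on chromosome 8, by distance in kb from the low-coordinate end of TNFRSF10B, with 1 panel per resistant line. Circles are member peaks, squares other peaks of the locus, filled symbols are called and bars are the SE; the point near 144 kb is the TNFRSF10D end peak, at 1.19, 2.97 and 2.95.

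Seen along the 205 kb cluster of the TRAIL receptor genes, which held 26 peaks, the large rise in paclitaxel- and dual-resistant cells sat on 1 peak. Of the 6 peaks of the cluster outside the members, 3 were higher and 1 lower than control in cisplatin-resistant cells, and 0 were called by limma in paclitaxel- or dual-resistant cells (1 and 2 at an unadjusted p under 0.05, 0 and 0 by edgeR). Of all tested peaks 33.2%, 16.4% and 13.5% were called in cisplatin-, paclitaxel- and dual-resistant cells. Counts over 6 peaks are too few to set apart from these shares. Between the cisplatin-resistant line and the other lines, the TNFRSF10A and TNFRSF10D end peaks of this cluster differed in opposite directions.

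FAS, the receptor of FAS ligand, was open at its starts in all groups. The peak over the first start (chr10:88990099-88991099) had 14.8 and 18.5 CPM in control, 21.8 and 19.3 in CpR, 20.03 and 22.4 in TxR and 20.2 and 18.3 in TxCpR libraries. No difference from control was called (0.30, 0.34 and 0.21, each with SE 0.16 and adjusted p = 0.132, 0.126 and 0.444). This depended on the scaling. The cisplatin-resistant difference was called with median-ratio, quantile and cyclic loess scaling, and the paclitaxel-resistant one with median-ratio scaling and by edgeR. The peak over the third start, which holds the p53 half-site printed above (chr10:88991280-88992280), had 7.41 and 9.65 CPM in control, 14.3 and 14.4 in CpR, 10.2 and 12.4 in TxR and 12.1 and 10.5 in TxCpR libraries. All 6 resistant libraries lay above both control libraries, and the cisplatin-resistant line alone passed the test (0.73, SE 0.20, adjusted p = 0.00201). The median log2 level of tested non-member peaks within 2.5 Mb on each side of FAS was 0.28 above control in that line. With this subtracted the difference was 0.45 (adjusted p = 0.0665). The unsubtracted difference was 0.55 without control library 1, where its call ended. With no variance trend the call ended too (adjusted p = 0.0629). The paclitaxel-resistant difference of 0.39 (adjusted p = 0.184) was called with median-ratio scaling.

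A weaker peak at chr10:88974564-88975564 was the only member peak outside TNFRSF10D that was called in all 3 lines. It had 1.04 and 2.32 CPM in control, 5.74 and 3.39 in CpR, 4.61 and 5.17 in TxR and 3.46 and 3.87 in TxCpR libraries, with no overlap between control and any line. The differences were 1.24 (SE 0.34, adjusted p = 0.00196), 1.37 (SE 0.34, adjusted p = 0.0012) and 1.0 (SE 0.34, adjusted p = 0.0317). All 3 calls ended without control library 1, where they were 0.81, 0.93 and 0.56 (adjusted p = 0.108, 0.0995 and 0.429). The first also ended without cisplatin-resistant library 1 (0.90, adjusted p = 0.11), and the last without dual-resistant library 1 (1.07, adjusted p = 0.114) or 2 (0.93, adjusted p = 0.175). This peak, the start peaks and 1 more FAS peak also lie in the annotated span of ACTA2, the smooth muscle actin gene, so they cannot be given to FAS alone.

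The initiator caspases differed from each other. CASP10 was nearly closed in control and cisplatin-resistant cells and open in the other lines. Its low-coordinate end peak (chr2:201182698-201183698) had 1.17 and 1.93 CPM in control, 1.69 and 2.57 in CpR, 13.5 and 10.9 in TxR and 8.66 and 10.5 in TxCpR libraries. Control and cisplatin-resistant libraries overlapped, and the other 4 libraries lay above them all. The difference from control was 2.65 (SE 0.29, adjusted p = 7.74e-13) in paclitaxel-, 2.32 (SE 0.29, adjusted p = 2.52e-10) in dual- and 0.36 (SE 0.29, adjusted p = 0.361) in cisplatin-resistant cells. Dual-resistant cells exceeded cisplatin-resistant cells by 1.95 (adjusted p = 2.49e-08), and paclitaxel-resistant cells did so by 2.28 (adjusted p = 1.38e-10). Between paclitaxel- and dual-resistant cells the difference was -0.33 (95% interval -0.91 to 0.25, adjusted p = 0.454). The other CASP10 peak (chr2:201184497-201185497), named after its values were seen, held 0 to 0.818 CPM in control and cisplatin-resistant libraries, 2.02 and 2.06 in TxR and 2.15 and 3.34 in TxCpR ones. It was called in the same lines (1.53, adjusted p = 0.016, and 1.86, adjusted p = 0.00308).

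CASP8, the initiator caspase that both receptor systems use, kept its main start peak in all lines. The peak over the first start (chr2:201233113-201234113), whose upstream sequence is printed above, had 30.8 and 32.95 CPM in control, 29.5 and 25.6 in CpR, 31.7 and 33.3 in TxR and 30.4 and 30.6 in TxCpR libraries. No difference was called, and the 95% intervals from control were -0.46 to 0.04, -0.22 to 0.28 and -0.31 to 0.19. After the regional median difference of 0.32 was subtracted, the cisplatin-resistant difference was -0.53 (adjusted p = 0.000438). A peak inside the gene (chr2:201235963-201236963) had 3.51 and 5.02 CPM in control, 7.32 and 7.02 in CpR, 5.71 and 6.41 in TxR and 8.16 and 9.99 in TxCpR libraries. It rose in dual- (1.02, SE 0.25, adjusted p = 0.00167) and cisplatin-resistant cells (0.70, SE 0.25, adjusted p = 0.0216). Without control library 1 these were 0.79 and 0.47 (adjusted p = 0.0783 and 0.243), without dual-resistant library 2 the first was 0.88 (adjusted p = 0.0686), and without cisplatin-resistant library 1 or 2 the second was 0.68 or 0.73 (adjusted p = 0.0968 and 0.0662). With the regional median subtracted, the cisplatin-resistant difference was 0.39 (adjusted p = 0.245). That call also ended with no variance trend (adjusted p = 0.079). The peak over the second start (chr2:201257885-201258885), with the TATA box and the p53 half-site before it, had 10.5 and 10.9 CPM in control, 14.1 and 14.5 in CpR, 11.5 and 13.4 in TxR and 16.2 and 15.3 in TxCpR libraries. The dual-resistant difference of 0.53 (SE 0.18, adjusted p = 0.0351) was lost under 8 alternatives, including the removal of any 1 control or dual-resistant library and regional subtraction (0.30, adjusted p = 0.311). The cisplatin-resistant difference of 0.40 (adjusted p = 0.0823) was not called. It was called under 4 alternatives: median-ratio, quantile and cyclic loess scaling, and edgeR. At chr2:201254171-201255171, named after its values were seen, the level fell in cisplatin-resistant cells from 2.99 and 2.45 to 0.90 and 1.29 CPM (-1.02, SE 0.39, adjusted p = 0.0355).

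Of the 12 peaks of CFLAR, the inhibitor gene, 5 were higher and 2 lower in cisplatin-resistant cells, the line with the most calls among all tested peaks (33.2%, against 16.4% in paclitaxel- and 13.5% in dual-resistant cells). In paclitaxel-resistant cells 0 of 12 were called by limma (2 at an unadjusted p under 0.05, and 2 by edgeR), and in dual-resistant cells 1 was. The first start peak (chr2:201118415-201119415), whose sequence carries the overlapping SP1 and NF-kB matches, had 22.4 and 23.8 CPM in control, 15.9 and 16.4 in CpR, 29.7 and 26.7 in TxR and 19.5 and 22.5 in TxCpR libraries. Cisplatin-resistant libraries were the lowest and paclitaxel-resistant libraries the highest, without overlap. The fall in cisplatin-resistant cells was -0.50 (SE 0.15, adjusted p = 0.00414). Its call ended with no variance trend (adjusted p = 0.139), with cyclic loess scaling (-0.31, adjusted p = 0.101) and without control library 2 (-0.46). Paclitaxel-resistant cells exceeded cisplatin-resistant cells by 0.79 (SE 0.15, adjusted p = 4.14e-06), and the dual-resistant value lay between the single-resistant ones, 0.37 above the first (adjusted p = 0.0348) and -0.42 from the second (adjusted p = 0.0273).

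A pair of peaks in the gene body went the other way. At chr2:201149280-201150280 the libraries had 0.650 and 0.515 CPM in control, 10.6 and 9.59 in CpR, 0.243 and 0.674 in TxR and 0.618 and 0.322 in TxCpR libraries. At chr2:201150848-201151848 they had 0.650 and 0.129, 9.23 and 9.71, 0.364 and 0.225, and 0.371 and 0.430 CPM in the same order. Both peaks lie in the span of CFLAR-AS1, a non-coding gene annotated inside CFLAR. They stood at a few reads per library in 3 groups and were open in the cisplatin-resistant cells. The differences from control were 3.29 (SE 0.46, adjusted p = 3.19e-09) and 3.55 (SE 0.47, adjusted p = 8.87e-10). Dual-resistant cells, although labelled with the same drug, were lower than cisplatin-resistant cells by differences of -3.46 (adjusted p = 4.47e-10) and -3.47 (adjusted p = 1.41e-09). A peak nearer the starts (chr2:201130147-201131147) had the same form at a lower level, 0.780 and 0.901 CPM in control and 3.26 and 3.86 in cisplatin-resistant libraries (1.60, SE 0.45, adjusted p = 0.00331). The other calls, named after their values were seen, were smaller. In cisplatin-resistant cells chr2:201125146-201126146 and chr2:201128702-201129702 were higher (0.62 and 1.24, adjusted p = 0.0457 and 0.0329), and chr2:201115755-201116755, over the low-coordinate end of the span, was lower (-0.41, adjusted p = 0.0357). In dual-resistant cells chr2:201176950-201177950 was higher (0.74, adjusted p = 0.0256).

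**Figure D3:**
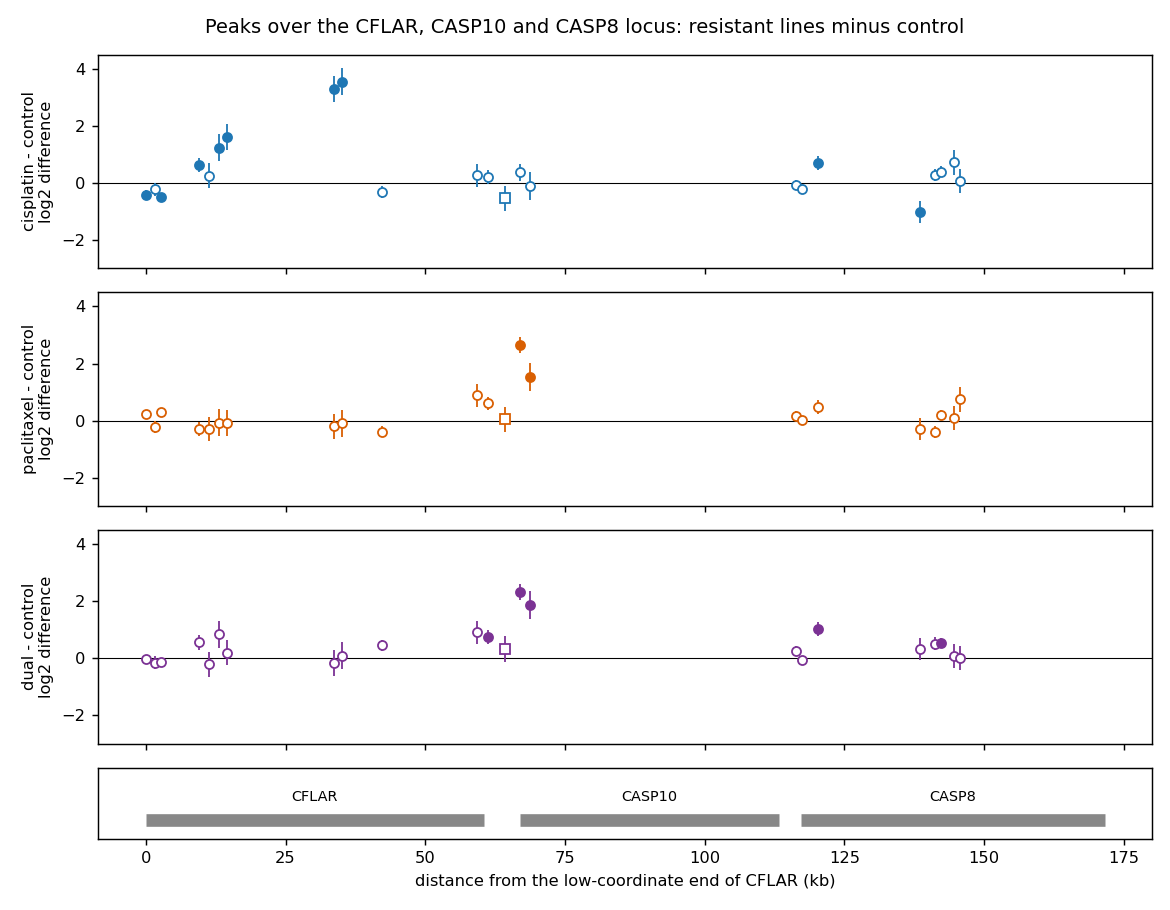
Log2 difference from control of each peak across CFLAR, CASP10 and CASP8 on chromosome 2, by distance in kb from the low-coordinate end of CFLAR, with 1 panel per resistant line. Symbols and bars are as in the plot of the TRAIL receptor cluster; the CFLAR-AS1 pair (3.29 and 3.55) stands out in the cisplatin-resistant panel and the CASP10 end peak (2.65 and 2.32) in the other panels.

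Across the 172 kb from CFLAR to CASP8 lay 23 peaks, of which 22 are members. Calls against control in cisplatin-resistant cells fell in CFLAR (7) and CASP8 (2). Those in paclitaxel-resistant cells fell in CASP10 (2), and those in dual-resistant cells in CASP10 (2), CASP8 (2) and CFLAR (1). Beside these counts, 33.2%, 16.4% and 13.5% of all tested peaks were called in cisplatin-, paclitaxel- and dual-resistant cells. The CFLAR-AS1 pair was open in cisplatin-resistant cells alone, the CASP10 end was open in paclitaxel- and dual-resistant cells, and the first CASP8 start was at 25.6 CPM or more in every library. Tested non-member peaks within 2.5 Mb on each side of CASP10 had median log2 levels that differed from control. The differences were 0.30, -0.15 and 0.23 in cisplatin-, paclitaxel- and dual-resistant cells. With these subtracted, the CASP10 end differed from control by 0.07, 2.80 and 2.09.

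Between the resistant lines, 17 member peaks were called in dual- against cisplatin-resistant cells (12 higher, 5 lower), beside 41.8% of all tested peaks. In paclitaxel- against cisplatin-resistant cells 19 were called (8 higher, 11 lower), beside 38.7%. In dual- against paclitaxel-resistant cells 7 were called (6 higher, 1 lower), beside 22.4%. As shares of the members these were 36.2%, 40.4% and 14.9%. The split of higher to lower depends on the scaling: median-ratio scaling gave 10 and 7 for the first and 4 and 4 for the third, edgeR on recovered reads gave 3 and 6 for the third, and quantile scaling gave 15 and 9 for the second. All CASP10 peaks (2 of 2) were called higher in both lines that carry the paclitaxel label than in cisplatin-resistant cells.

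With the CPM of all peaks of a gene summed, 4 of the 7 member genes with peaks were called in each line, beside 54.7%, 35.4% and 28.3% of 17561 genes in cisplatin-, paclitaxel- and dual-resistant cells. FAS, whose sum includes peaks that also lie in the ACTA2 span, was higher in all 3 lines. It had 27.2 and 32.7 CPM in control, 44.8 and 39.8 in CpR, 42.1 and 45.1 in TxR and 38.8 and 37.8 in TxCpR libraries (0.49, 0.54 and 0.36, SE 0.11, adjusted p = 0.00022, 9.57e-05 and 0.0137). TNFRSF10D was also higher in all 3 lines, at 15.2 and 16.1, 26.2 and 21.4, 37.3 and 45.7, and 49.2 and 47.6 CPM (0.58, 1.37 and 1.60, SE 0.13, adjusted p = 0.00016, 1.04e-13 and 3.33e-16). In every resistant library these sums lay above both control libraries.

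CASP10 summed to 1.69 and 2.19 CPM in control, 1.69 and 3.39 in CpR, 15.5 and 12.9 in TxR and 12.0 and 12.7 in TxCpR libraries (2.60 and 2.40 in the last lines, SE 0.28, adjusted p = 8.65e-12 and 1.97e-10). TNFRSF10A summed to 8.06 and 5.53, 10.02 and 10.99, 3.76 and 2.36, and 6.68 and 8.71 CPM, higher in cisplatin- (0.61, SE 0.27, adjusted p = 0.0456) and lower in paclitaxel-resistant cells (-1.04, SE 0.27, adjusted p = 0.0012). The first of these calls ended without either cisplatin-resistant library, without control library 2 (0.36, adjusted p = 0.370) or without dual-resistant library 2, and the second without control library 1 (-0.79, adjusted p = 0.0651) or paclitaxel-resistant library 2 (-0.75, adjusted p = 0.0548). CASP8 was higher in dual-resistant cells, at 90.1 and 95.1 against 75.4 and 76.7 CPM in control (0.28, SE 0.08, adjusted p = 0.00354). CFLAR was higher in cisplatin-resistant cells (0.21, SE 0.08, adjusted p = 0.0182), a sum in which the first start fell and the CFLAR-AS1 pair rose; it was 0.16 (adjusted p = 0.152) without cisplatin-resistant library 2 and 0.18 (adjusted p = 0.108) without control library 1. FAS in dual-resistant cells was 0.23 (adjusted p = 0.258) without control library 1 and 0.34 (adjusted p = 0.0851) without dual-resistant library 1. The summed TNFRSF10B differences were -0.13, -0.01 and 0.03, and none was called. Regional subtraction was not run on these sums. The regional median difference from control was 0.30 at CFLAR in cisplatin- and 0.23 at CASP8 in dual-resistant cells. In cisplatin-, paclitaxel- and dual-resistant cells it was 0.28, -0.06 and 0.10 at FAS. At TNFRSF10A and TNFRSF10D it was 0.21, -0.21 and 0.26. Its part in the sums was not tested.

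**Figure D4:**
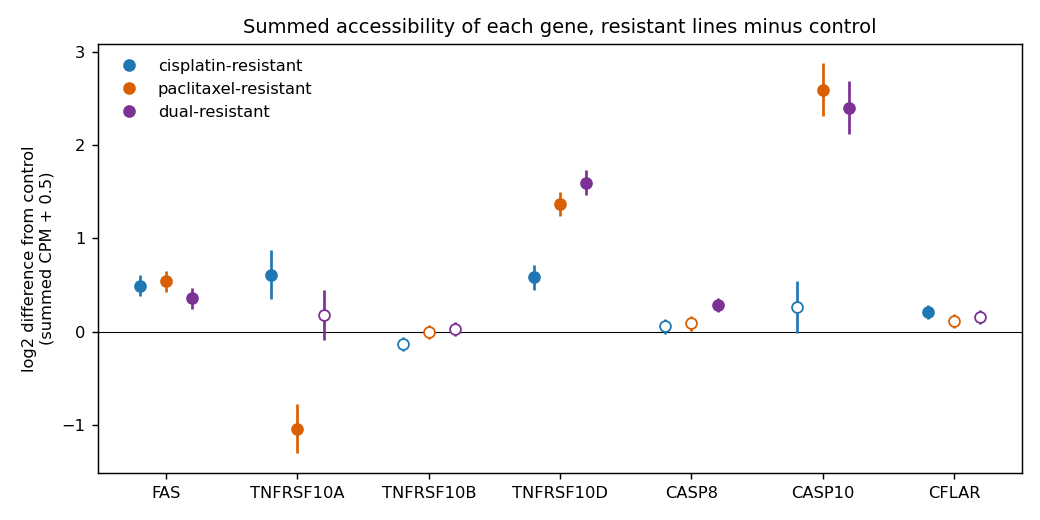
Log2 difference from control of the summed CPM of all peaks of each of the 7 member genes with peaks, in the 3 resistant lines, with the SE as bars and filled symbols where called. CASP10 (2.60 and 2.40) and TNFRSF10D (1.37 and 1.60) stand highest in paclitaxel- and dual-resistant cells, and TNFRSF10B stays between -0.13 and 0.03. The FAS sum includes peaks that also lie in the ACTA2 span.

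The rest of the pathway was described by a list of 42 genes of known role, of which 32 had a peak at the gene start. Start peaks of 3 list genes were higher and 8 lower in cisplatin-, 5 higher and 1 lower in paclitaxel-, and 3 higher and 7 lower in dual-resistant cells. Over all 15726 gene starts 39.6%, 22.8% and 19.9% were called, with 1675 higher and 4548 lower, 2041 and 1547, and 715 and 2408. Median log2 differences of the list were -0.16, 0.02 and -0.16, beside -0.19, 0.01 and -0.14 over all starts. The balance moved with scaling: median-ratio scaling gave 3 and 3, 13 and 0, and 2 and 11, edgeR on recovered reads 3 and 4, 12 and 0, and 2 and 14, and quantile scaling 3 and 3, 5 and 1, and 4 and 4.

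Among the ligands, only TNFSF10, the gene of TRAIL itself, and LTA had a start peak. TNFSF10 (chr3:172522902-172523902) had 4.85 ± 0.674 CPM (SD, n = 2 here and below) in control, 2.46 ± 0.177 in cisplatin-, 3.68 ± 0.0468 in paclitaxel- and 11.2 ± 2.22 in dual-resistant cells. It was higher in dual- (1.12, SE 0.28, adjusted p = 0.00231) and lower in cisplatin-resistant cells (-0.85, SE 0.28, adjusted p = 0.0139). Without dual-resistant library 2 the first was 0.93 (adjusted p = 0.108) and without control library 2 it was 0.99 (adjusted p = 0.0503). The second was -0.62 (adjusted p = 0.0909) with cyclic loess scaling, -0.72 (adjusted p = 0.121) without control library 1 and -0.79 (adjusted p = 0.0679) without cisplatin-resistant library 2. FASLG, TNF and TNFSF15 had no start peak.

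Of 5 other receptors with a peak, TNFRSF1A, a TNF receptor, was higher in paclitaxel- and dual-resistant cells (0.58 and 0.56, adjusted p = 0.0159 and 0.0234). The first call ended without control library 2 (0.50, adjusted p = 0.134) or paclitaxel-resistant library 2 (0.49, adjusted p = 0.168), and the second without any 1 control or dual-resistant library (0.49 to 0.64). NGFR, a neurotrophin receptor with a death domain, was lower in dual-resistant cells (-0.81, adjusted p = 0.00811), and the call ended without control library 2 (-0.62, adjusted p = 0.191) or dual-resistant library 1 (-0.38, adjusted p = 0.463). TNFRSF21, another death domain receptor, was lower in cisplatin-resistant cells (-0.34, adjusted p = 0.0377), a call that all 3 other scalings ended (-0.23 to -0.16, adjusted p = 0.198 to 0.394), as did leaving out control library 1 (-0.22, adjusted p = 0.333) or either cisplatin-resistant library (-0.38 and -0.30, adjusted p = 0.066 and 0.162). Among 11 adaptors and complex proteins, BIRC3, a ubiquitin ligase that acts on RIPK1, rose from 6.46 ± 1.24 to 14.8 ± 1.21 CPM in cisplatin-resistant cells (chr11:102316774-102317774; 1.15, SE 0.23, adjusted p = 3.52e-05). TRAF2, which binds BIRC3, was lower in cisplatin- and dual-resistant cells (-0.62 in each, adjusted p = 0.000318 and 0.000845). With no variance trend both TRAF2 calls ended (adjusted p = 0.106 and 0.189), as did the TNFRSF1A, NGFR and TNFRSF21 calls above.

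MLKL, the effector that opens the membrane in necroptosis, a death route taken when CASP8 is inactive, was the one necroptosis gene with a start peak. It had 1.81 ± 1.09 CPM in control and 2.52 ± 0.419 in cisplatin-resistant cells, against 7.28 ± 0.675 in paclitaxel- and 8.72 ± 1.84 in dual-resistant cells (chr16:74700143-74701143). The differences from control were 1.83 (SE 0.31, adjusted p = 1.18e-06) and 2.07 (SE 0.31, adjusted p = 7.23e-08) in the last lines, and 0.46 (adjusted p = 0.258) in cisplatin-resistant cells. RIPK3 and ZBP1, which act before MLKL, had no start peak.

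Start peaks elsewhere in the genome whose pattern over the 8 libraries was most like that of a member were found by Pearson's r on the log2 scale, as a description. TNFRSF10D was most like ACYP2 and PCDHGC3 (0.99 each), with ACYP2 at 1.03, 3.95, 36.8 and 45.1 CPM in control, cisplatin-, paclitaxel- and dual-resistant cells. CASP10 was most like CPA5 (0.99) and NFIA (0.98), and NFIA had 6.72, 8.61, 40.3 and 36.8 CPM in the same order. TNFRSF10A was most like ETV4 and MRGPRF (0.99 each). The first CFLAR start was most like a start peak shared by SOCS4 and WDHD1 (0.99).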

How the data were processed

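ATAC-seq libraries of 8 samples (4 groups of 2) were analysed. The authors deposited 1 matrix of CPM values for 159451 consensus peaks of 1001 bp, per the file headers and the values, in which each column sums to the same total, so a genome-wide opening or closing would not show. Bowtie2, Picard, MACS2 and hg38 are named in the submitters' processing notes. Versions, settings, Tn5 shift, multi-mapping and peak merging were not given in the sources used here. The deposited CPM were whole multiples of 1 step per library for 100% of values (tolerance 0.01 read).

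Peaks that reached 1 CPM in 2 or more libraries entered limma 3.58.1 (R 4.3.3) on log2(CPM + 0.5), all groups together, with the variance trend on (residual degrees of freedom 4, prior 98.5), so an SE mostly reflects that trend, and very small p-values rest on it. Log2 differences understate the change of weak peaks. p-values were adjusted by Benjamini-Hochberg over all tested peaks, genes or starts. Alternatives were other pseudocounts, filters, scalings, spans and fits, regional subtraction, each library left out and, added after seeing the data, edgeR 4.0.16 on recovered reads. Figures were drawn with matplotlib 3.10.9.

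The reference table had no strand, and the promoter table no start for CASP10 and the TNFRSF10 genes, so for these the stronger peak at either span end stood for the start. Exons, introns and UTRs were not resolved. Named peaks were, per gene, the start peak, the strongest peak and up to 3 other called peaks of at least 3 CPM without overlap between groups, by size; pathway genes were up to 2 per role whose called log2 difference reached 1 in size, and others are given as examples. The members and lists were chosen with earlier results of these data known. Results of some genes of the pathway list are not reported here by name.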

Additional observations from a re-analysis of the deposited data

How the results depend on the processing

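Of the log2 differences from control of the named peaks, 1107 values under alternatives stayed on the same side of the threshold, 24 gained a call, 69 lost one and none changed sign while called. The differences at the TNFRSF10D end (3 lines), the CASP10 end (paclitaxel- and dual-resistant), the TNFRSF10A end and the CFLAR-AS1 pair (cisplatin-resistant) were called under every alternative run. Counts of called peaks moved more. For the 17 member peaks in cisplatin-resistant cells, no variance trend left 11 and leaving out 1 library 9 to 16 (9 without control 1, 10 without control 2 or cisplatin-resistant 1). For the 6 in paclitaxel-resistant cells, median-ratio scaling gave 12 and edgeR 10, and leaving out 1 library 3 to 6 (3 without paclitaxel-resistant 1). For the 9 in dual-resistant cells, median-ratio, quantile scaling, regional subtraction and edgeR gave 5 each and no trend 4; leaving out 1 library gave 3 to 9 (4 without control 1, 5 without control 2, 3 without dual-resistant 1, 4 without dual-resistant 2). The 17 in dual- against cisplatin-resistant cells became 11 to 17 (11 without dual-resistant 2), and the 7 against paclitaxel-resistant cells 3 to 7 (4 without paclitaxel-resistant 1, 3 without paclitaxel-resistant 2 or dual-resistant 1). The 4 gene sums in cisplatin-resistant cells became 2 to 4 (2 without cisplatin-resistant 2). The 11 pathway genes in cisplatin-resistant cells became 6 with median-ratio or quantile scaling, 7 with edgeR, 2 with no trend and 6 to 11 without 1 library (6 without control 1). The 6 in paclitaxel-resistant cells became 13 with median-ratio scaling, 12 with edgeR and 1 with no trend, and the 10 in dual-resistant cells 16 with edgeR, 2 with no trend and 5 to 11 without 1 library (5 without any 1 control or dual-resistant library). Where no cause is named, the cause was not tested; dropping a library also leaves fewer samples. A library left alone in its group was assumed to vary like the other groups.

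Replicate numbers did not pair the libraries: differences between libraries 1 and 2 correlated between groups at -0.000587 to 0.00332. With the replicate number as a block, the member peaks called against control were 17, 6 and 9 and no count changed.

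Peaks under about 3 CPM rest on few reads per library, and a difference there that was not called was not detectable at this depth. With 2 libraries a group, the spread of a single peak is poorly known.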
